A study of Glycine max with 2 samples.

Results

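The nuclei described here are those of the developing soybean seed that carried RNAs of callose synthase genes above set minimums. They were kept where 5 genes closest to Arabidopsis glucan synthase-like genes summed to at least 3 UMIs (unique molecular identifiers, each standing for 1 captured RNA molecule) and to at least 10 per 10000 UMIs of the nucleus. That sum also had to equal or exceed the sum of 3 other vascular RNAs, the SWEET13 homologs Glyma.05G202700 and Glyma.08G010000 and the bZIP9 homolog Glyma.17G188500. The rule kept 322 of 8636 nuclei, which is 3.73% (exact binomial 95% interval 3.34% to 4.15%), and these are called callose synthase nuclei below. The values of these 8 genes chose the nuclei, so their levels are given as a description.

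The series profiled whole cotyledon stage seeds of the soybean cultivar Williams 82, with no mutant and no treatment in any group. Nuclei of many seeds were pooled and 10000 of them were loaded for a Multiome assay, which reads nuclear RNA and open chromatin (ATAC) from the same nucleus. There was 1 RNA library and 1 ATAC library, and all 8636 nuclear barcodes of the RNA matrix were found in both. Nuclei of 1 library are not replicates, so no test between groups was made, and every interval below covers counting error only.

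Callose is a glucose polymer that plant cells lay down at plasmodesmata, at cell plates and around the pores of sieve plates in the phloem. It is made at the plasma membrane by large callose synthases, the glucan synthase-like (GSL) family, and Arabidopsis GSL7 is the member known for the callose of sieve plates. In legume seeds the vascular supply ends in the seed coat, from which sucrose and other nutrients are released toward the embryo.

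Callose synthase nuclei were set against 3 other sets. SWEET13/bZIP9 nuclei (207) passed the same minimums for the 3 opposing genes, which there exceeded the GSL sum. SWEET13 exports sucrose, and in Arabidopsis both SWEET13 and bZIP9, a leucine zipper transcription factor, are known from phloem parenchyma. Parenchyma comparison nuclei (512) lay outside both sets and passed the minimums for the other 3 bZIP9 homologs. The remaining 7595 nuclei held all other seed tissues. Depth was alike among the sets, with a median of 2659.5 UMIs in callose synthase nuclei (range 539 to 94285), against 2954 in SWEET13/bZIP9 nuclei, 3398 in parenchyma comparison nuclei and 2932 in the remaining nuclei. The deepest callose synthase nucleus held 7.46% of the 1263318 UMIs of its set and lay outside the vascular clusters.

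All 5 genes of the rule contributed, and none was found in every nucleus. Levels below are UMIs per 1000000 UMIs of a set (CPM). Glyma.18G109100, closest to GSL7, was the most abundant at 1221 CPM in callose synthase nuclei, against 119 in SWEET13/bZIP9 nuclei, 34.9 in parenchyma comparison nuclei and 9.09 in the remaining nuclei, and it gave 32.8% of the rule UMIs. It was found in 201 of the 322 nuclei, with a median of 1 UMI and a highest value of 97. Glyma.15G245800, closest to GSL4, another member of the family, followed at 917 CPM, against 97.4, 22.1 and 5.55 in the same 3 sets, with 24.6% of the rule UMIs. These were also the genes with the widest gap to the 8314 other nuclei as 1 set, at ratios of 90.4 and 102.

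The other 3 genes were less abundant and less confined to these nuclei. Glyma.13G261000 (GSL4) stood at 562 CPM in callose synthase nuclei, against 225 in SWEET13/bZIP9 nuclei, 46.9 in parenchyma comparison nuclei and 12.2 in the remaining nuclei. Glyma.08G308700 (GSL7) stood at 549 CPM, against 101, 42.9 and 29.4 in those sets. Glyma.18G107900 (GSL7) stood at 473 CPM, against 164, 125 and 38.9. The last of these had the smallest ratio to all other nuclei, 10.0, and only 24.7% of its UMIs in the library lay in callose synthase nuclei, whereas Glyma.15G245800 had 77.0% there. Soybean carries many close gene copies, so reads of these paralogs may have been shared between them and the split among the 5 genes is uncertain.

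**Figure D1:**
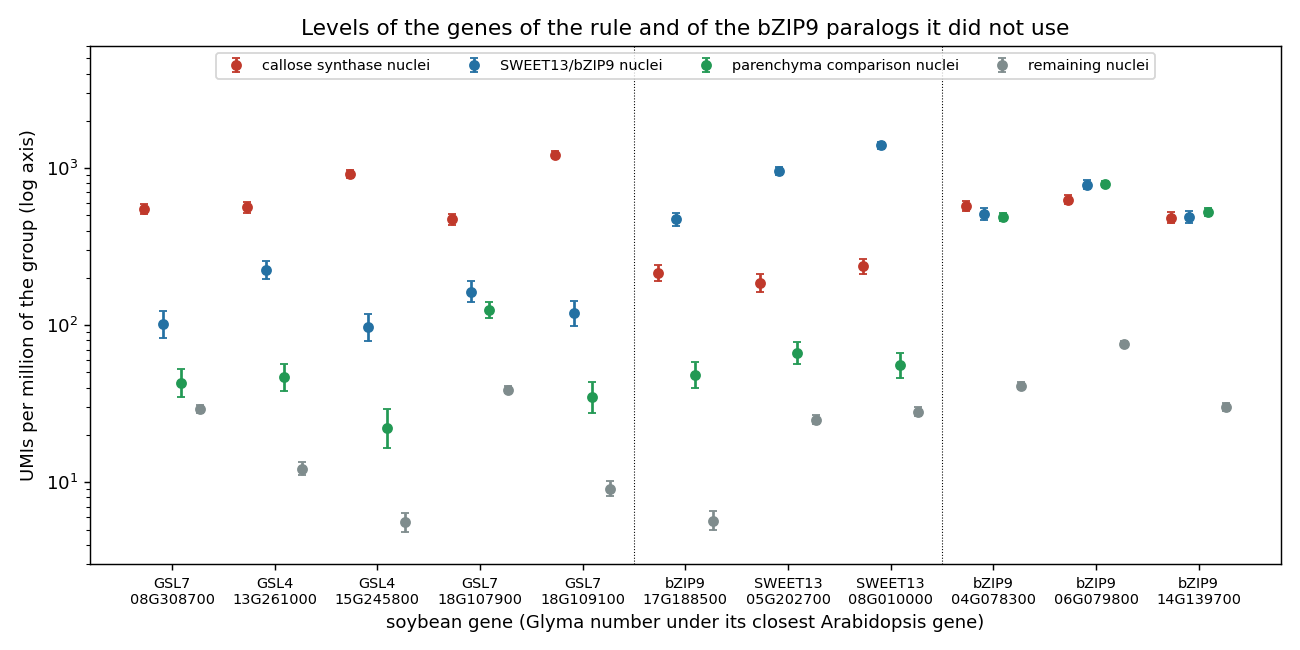
Levels of the 5 GSL homologs of the rule, the 3 genes they were set against and the 3 bZIP9 homologs the rule did not use, in CPM on a log axis, in callose synthase, SWEET13/bZIP9, parenchyma comparison and remaining nuclei; bars are exact Poisson 95% intervals. The GSL homologs stand at 473 to 1221 in callose synthase nuclei, while the 3 bZIP9 homologs on the right lie at 484 to 631 there and at 489 to 786 in SWEET13/bZIP9 nuclei.

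In single nuclei the 5 RNAs were sparse and unevenly combined. A callose synthase nucleus held a median of 7 rule UMIs, with quartiles of 4 and 16 and a highest value of 191, or a median of 23.6 per 10000 UMIs. All 5 genes were found together in 63 nuclei, 4 in 73, 3 in 83, 2 in 76 and only 1 in 27. A GSL7 homolog was found without either GSL4 homolog in 62 nuclei, a GSL4 homolog without any GSL7 homolog in 18, and both kinds in 242. Across the 322 nuclei, on a log scale of UMIs per 10000, Glyma.18G109100 went with Glyma.08G308700 (Pearson r = 0.35) and Glyma.13G261000 with Glyma.15G245800 (r = 0.34), while Glyma.13G261000 and Glyma.18G107900 ran the other way (r = -0.25). These r values describe nuclei of 1 library that share its depth and the minimum that kept them.

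A share of nuclei with a UMI depends on depth and on free RNA, so the share in the endosperm clusters, which are not vascular, is given beside it. Glyma.18G109100 was found in 62.4% of callose synthase nuclei, against 3.49% of the 1033 endosperm nuclei, whose median depth was higher at 5779 UMIs. After each nucleus was thinned to 500 UMIs, which left out 27 nuclei of the library, the shares were 27.3% in callose synthase nuclei and 0.387% in endosperm nuclei. Glyma.08G308700 had the highest endosperm share, 27.7% unthinned. After thinning it was found in 18.9% of callose synthase nuclei, against 2.52% of endosperm nuclei and 1.11% of the remaining nuclei. The endosperm nuclei include callose synthase nuclei, 3 in sn10, 2 in sn11 and 1 in sn12. The rule required GSL UMIs of its members, so these shares describe the choice. How much of the endosperm shares was free RNA and how much RNA of the endosperm itself was not tested.

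The minimums lay in a region with nuclei on both sides. A sum of exactly 3 UMIs kept 69 nuclei, while 52 nuclei with a sum of 2 met the other conditions and stayed out. Between 10 and 12 rule UMIs per 10000 there were 34 nuclei inside, and between 8 and 10 there were 52 outside. Of the 721 nuclei with at least 3 rule UMIs, 358 fell below the rate, and 41 passed both minimums but had more UMIs of the 3 opposing genes. Of the nuclei kept, 138 had none of the 3 opposing RNAs and 184 had at least 1 UMI of them.

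The opposing RNAs were thus lower here than in SWEET13/bZIP9 nuclei, as the rule required. They were above the remaining nuclei, from which the nuclei chosen by high levels of these RNAs had been taken out. Over all 8314 other nuclei as 1 set, the ratios were 3.58 for Glyma.08G010000, 3.57 for Glyma.05G202700 and 10.5 for Glyma.17G188500. Glyma.08G010000 stood at 237 CPM in callose synthase nuclei, against 1397 in SWEET13/bZIP9 nuclei, 55.7 in parenchyma comparison nuclei and 28.1 in the remaining nuclei. Glyma.05G202700 stood at 187 CPM, against 959, 66.8 and 25 in those sets, and Glyma.17G188500 at 215 CPM, against 472, 48.2 and 5.69.

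The label of these nuclei as vascular was checked against clusters rebuilt from the RNA and against marker genes. The study placed its clusters sn6a and sn6b in seed coat vascular tissue, and the rebuilt clusters matched to them held 196 and 40 callose synthase nuclei, together 73.3% of the set. In sn6a they were 54.4% of 360 nuclei (49.1% to 59.7%), and in sn6b 20.2% of 198 nuclei (14.8% to 26.5%). The clustering used the rule genes, so these shares are a description.

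The other 86 nuclei were spread over most of the seed. There were 25 in the embryo clusters (12 in sn15, 11 in sn2 and 2 in sn18), 18 in the seed coat parenchyma cluster sn1 and 43 elsewhere, of which 5 lay in the hilum cluster sn16. In sn15 they were 5.26% of the cluster, and in no cluster other than sn6a, sn6b and sn15 did they reach 3%. Cluster sn20 had none of 162 nuclei, where 3 nuclei, the limit used here for a count of 0, would be 1.85%. The name "vascular" therefore covers 236 of the 322 nuclei by cluster, and the whole set is better called by its rule.

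**Figure D2:**
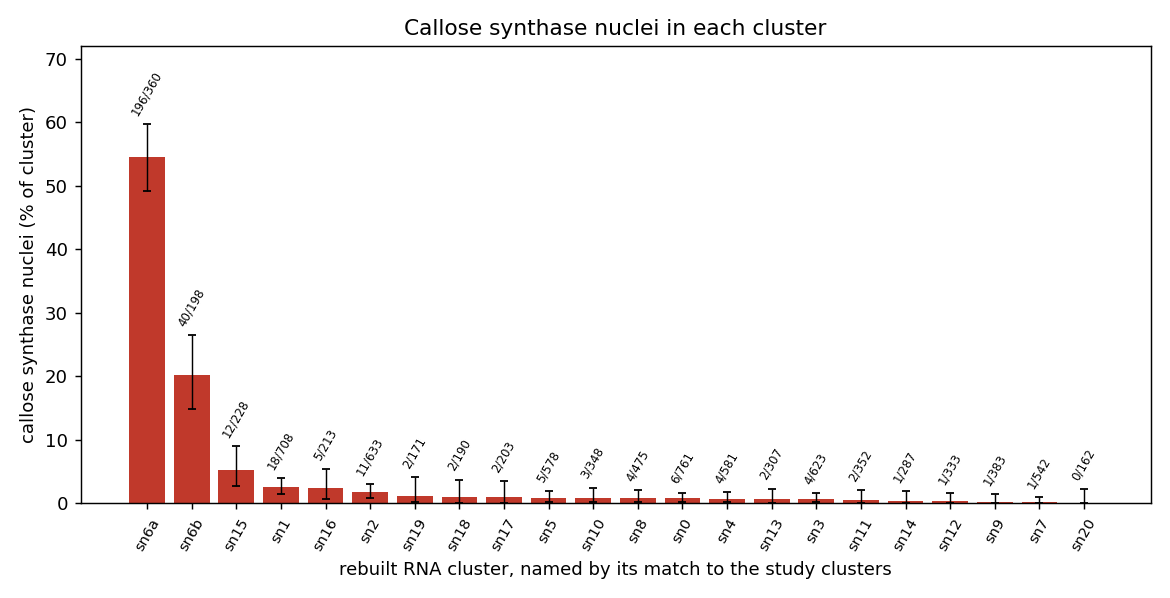
Share of each rebuilt RNA cluster made up of callose synthase nuclei, in percent of the cluster's nuclei, with exact binomial 95% intervals and the counts above the bars. The set made up 54.4% of sn6a and 20.2% of sn6b, against 5.26% or less of every other cluster.

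Marker lists were read over the whole set. The study lists for sn6a the 3 bZIP9 homologs that the rule did not use. They summed to 1688 CPM in callose synthase nuclei, against 1785 in SWEET13/bZIP9 nuclei and 1813 in parenchyma comparison nuclei, which were chosen by these genes. The remaining nuclei had 147 CPM, but they are what was left after that choice, so their low level partly follows from it. All 8314 other nuclei as 1 set had 288 CPM. The 3 xylem genes were nearly silent, at a sum of 1.58 CPM in callose synthase nuclei, against 6.40 in the remaining nuclei. Of these, the homologs of the vessel regulator VND4 and the laccase LAC4 were at 0 in callose synthase nuclei but had only 1 and 3 UMIs in the whole library. The homolog of WOX4, a cambium regulator, was also at 0, with 6 UMIs in the library, so its absence was not detectable at this depth. The cambium and auxin list of 5 genes that holds it summed to 54.6 CPM, against 61.3 in SWEET13/bZIP9 nuclei and 32.4 in the remaining nuclei. Of its 4 tested genes, 1 was called higher than in all other nuclei and none lower. By the size rule given below, 4.04% and 3.98% of all genes were. The vascular glycine-rich gene Glyma.01G018100 had 6 UMIs (4.75 CPM), against 12.7 CPM in SWEET13/bZIP9 nuclei and 2.24 CPM in the remaining nuclei, and was not called.

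Compared with the remaining nuclei, RNAs of the epidermis, endosperm and outer integument lists were lower but present, while the embryo and sn1 parenchyma lists were mixed. The study maps sn6a and sn6b themselves to the outer integument, so that list does not stand for a separate tissue. The 7 seed coat epidermis genes include homologs of the pigment regulators TT8 and TTG2. They summed to 588 CPM in callose synthase nuclei, against 502 in SWEET13/bZIP9 nuclei, 580 in parenchyma comparison nuclei and 2239 in the remaining nuclei. In callose synthase nuclei 263 of their 743 UMIs came from 1 nucleus. The 4 endosperm genes summed to 172 CPM, against 254, 161 and 918 in those sets. All 7 epidermis and 4 endosperm genes were called lower than in all other nuclei, where 3.98% of genes were by the size rule given below. The 4 outer integument genes summed to 1420 CPM, against 3113 in SWEET13/bZIP9 nuclei, 1444.5 in parenchyma comparison nuclei and 3218 in the remaining nuclei. Of these 4, 3 were called lower than in all other nuclei, and 3 lower than in SWEET13/bZIP9 nuclei, where 1.85% of genes were. The pair of embryo YABBY genes summed to 59.4 CPM, against 40.9 in SWEET13/bZIP9 nuclei, 25.2 in parenchyma comparison nuclei and 99.7 in the remaining nuclei, with 1 of 2 called lower. The pair of sn1 parenchyma genes, at 72 CPM, against 69.6 in the remaining nuclei, was not called. The part of free RNA and of doublets in these sums was not tested. Doublet calls were not used, and doublet scores served only in an alternative given below.

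Across all genes, callose synthase nuclei differed from other nuclei by a fixed size rule rather than by a test. A gene was called higher where its CPM was at least 2 times that of the other nuclei with at least 20 UMIs found, and lower where it was at most 0.5 times with at least 20 UMIs expected. Of 29742 genes with at least 100 UMIs in the library, 1201 (4.04%) were called higher and 1183 (3.98%) lower than in all other nuclei, and the median ratio was 0.958. Against SWEET13/bZIP9 nuclei, 1109 genes (3.73%) were called higher and 550 (1.85%) lower. Of the 1201 genes, 357 were also higher than in SWEET13/bZIP9 nuclei, 51 were lower and 793 were neither, so 66.0% of the genes that set these nuclei apart from the seed stayed within the 2-fold limits or the count minimums between these 2 sets.

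The gene with the highest ratio outside the rule was Glyma.18G250700, closest to the Arabidopsis subtilisin-like protease AIR3. It had 1118 UMIs in callose synthase nuclei, or 885 CPM, against 112 CPM in SWEET13/bZIP9 nuclei, 8.40 in parenchyma comparison nuclei and 3.20 in the remaining nuclei. Its ratio to all other nuclei was 138 (exact Poisson 95% interval 120 to 159), and callose synthase nuclei held 81.9% of its UMIs in the library. It was found in 121 of the 322 nuclei (37.6%), with at most 56 UMIs in a nucleus, and in none of the 1033 endosperm nuclei (3 nuclei would be 0.290%). After thinning to 500 UMIs it was found in 21.1% of callose synthase nuclei, against 1.45% of SWEET13/bZIP9 nuclei. The study lists this gene for sn6a from these same nuclei, so its level here is not independent of that list.

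The other AIR3 homologs named went in different directions. Glyma.14G048000 was also called higher, at 35.6 CPM in callose synthase nuclei, against 7.79 in SWEET13/bZIP9 nuclei and 1.67 in the remaining nuclei, from 45 UMIs in 9 nuclei. Without the nucleus that held 24 of these UMIs, its ratio to all other nuclei was 7.86 instead of 16.4. Glyma.05G152200 was called lower, at 5.54 CPM, against 35.1 in SWEET13/bZIP9 nuclei and 40.1 in the remaining nuclei. Both were named after their values were seen, among the highest or lowest genes with an Arabidopsis symbol.

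Across callose synthase nuclei the AIR3 homolog Glyma.18G250700 went most closely with Glyma.18G109100 (Pearson r = 0.52) and less with the other GSL homologs (r from -0.06 to 0.33). Most of the other genes with the highest ratios have no Arabidopsis symbol in the tables used. They were Glyma.19G011000 (67.3 CPM, against 4.87 in SWEET13/bZIP9 nuclei, ratio to all other nuclei 78.7), Glyma.08G163000 (199 CPM, against 36.0, ratio 59.7) and Glyma.05G039000 (90.2 CPM, against 14.6, ratio 57.1). Glyma.13G187000 had 130 CPM, against 1.95 in SWEET13/bZIP9 nuclei, the widest gap between these sets at a ratio of 66.7, yet its 164 UMIs came from 23 nuclei and up to 28 from 1 nucleus. Glyma.02G000700 was similar, with 282 UMIs from 33 nuclei and up to 58 in 1 nucleus. The high levels of these genes thus rested on few nuclei of the set.

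Named regulators among the highest ratios included vascular and growth factors. HCA2 (DOF5.6), a Dof zinc finger factor known in Arabidopsis for cambium and phloem formation, had the homolog Glyma.05G037800 at 72 CPM in callose synthase nuclei, against 8.76 in SWEET13/bZIP9 nuclei and 1.36 in the remaining nuclei, a ratio to all other nuclei of 42.8. The NAC075 homolog Glyma.01G005500, a NAC transcription factor, stood at 101 CPM, against 11.7 and 2.49, with a ratio of 34.9, and was named after its values were seen. The kinesin KP1 homolog Glyma.18G073500 stood at 287 CPM, against 23.4 and 7.5, with a ratio of 35.3, and it was found in 31.7% of callose synthase nuclei, against 2.03% of endosperm nuclei (9.63% and 0.194% after thinning). A further KP1 homolog, Glyma.08G333300, also named after its values were seen, had 169 CPM, against 78.9 and 13.3, and a ratio of 10.3.

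Further genes in this range, named after their values were seen, were lower in abundance. The homologs of PP2-B1, a relative of the phloem lectins, of the tetraspanin TET6 and of the calmodulin-binding protein IQD33 had ratios to all other nuclei of 24.9, 23.2 and 22.3 at 52.2 to 64.1 CPM. The BAM3 homolog Glyma.18G116800, a receptor kinase known from Arabidopsis protophloem, stood at 56.2 CPM in callose synthase nuclei, against 30.2 in SWEET13/bZIP9 nuclei, 10.6 in parenchyma comparison nuclei and 3.85 in the remaining nuclei. Its ratio of 1.86 to SWEET13/bZIP9 nuclei was under the size rule.

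Homologs of genes that act in sieve element formation were higher as a list. In Arabidopsis, BRX acts in the growth of protophloem, and CVP2 and CVL1 are phosphoinositide phosphatases of the same cells. Of 7 homologs listed, 6 were detected well enough to be tested and all 6 were called higher than in all other nuclei, where 4.04% of genes were, with a median ratio of 8.14 beside 0.958 over all genes. The 7th, Glyma.01G024200, had no UMI in any nucleus. All 6 were also called higher than in SWEET13/bZIP9 nuclei, where 3.73% of genes were, with a median of 5.44 beside 1.05 over all genes. Of the 7, 3 come from the study's own sn6a list, and the list was chosen with earlier results of these data known, so neither count is independent.

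The list members ran from low to moderate abundance. CVL1 (Glyma.10G246000) stood at 105 CPM in callose synthase nuclei, against 13.6 in SWEET13/bZIP9 nuclei, 4.42 in parenchyma comparison nuclei and 6.03 in the remaining nuclei, with a ratio to all other nuclei of 17.2. The CVP2 homologs Glyma.20G148600 and Glyma.01G235300 stood at 31.7 and 142 CPM, with ratios of 15.3 and 8.32. The BRX homologs Glyma.16G074200 and Glyma.01G148900 and the BRXL4 homolog Glyma.09G068100 stood at 165, 88.7 and 126 CPM, with ratios of 5.14, 7.38 and 7.97. Together the list reached 658 CPM in callose synthase nuclei, against 171 in SWEET13/bZIP9 nuclei, 156 in parenchyma comparison nuclei and 78.0 in the remaining nuclei. At least 1 UMI of the list was found in 26.1% of callose synthase nuclei thinned to 500 UMIs, against 4.94% of thinned endosperm nuclei (60.2% and 38.8% before thinning).

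Dof factors were higher than in the seed as a whole but mostly shared with SWEET13/bZIP9 nuclei. All 5 tested Dof genes of 7 listed were called higher than in all other nuclei, with ratios of 4.0 to 42.8, where 4.04% of genes were. The other 2 had 45 and 81 UMIs in the library, under the 100 needed. Against SWEET13/bZIP9 nuclei only the HCA2 homolog was called higher (ratio 8.22), and the others had ratios of 0.745 to 1.36. Of these, the TMO6 homolog Glyma.17G180600, a Dof factor of early vascular tissue, stood at 37.2 CPM, against 27.3 in SWEET13/bZIP9 nuclei, and the DAG1 homolog Glyma.16G022900 at 104 CPM, against 140.

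AINTEGUMENTA (ANT) and its relatives, AP2 factors that keep organs and vascular precursors growing, were called higher in 5 of 7 tested genes, beside 4.04% of all genes. The ANT homolog Glyma.01G195900 had the largest ratio to all other nuclei, 35.5, at 62.5 CPM, against 8.76 in SWEET13/bZIP9 nuclei and 1.16 in the remaining nuclei. The ANT homolog Glyma.17G158300 was the most abundant at 270 CPM, against 242 and 38.0. The AIL6 homologs Glyma.01G022500 and Glyma.09G199800 were not called against all other nuclei, at ratios of 0.999 and 1.57, but were called higher than in SWEET13/bZIP9 nuclei, at ratios of 3.74 and 2.53. Of the 8 listed genes, 4 come from the study's sn6a list.

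Other genes of callose turnover were few and mostly low in UMIs. Of 4 listed, none was called higher and 1 was called lower, beside 4.04% and 3.98% of all genes, so with 4 genes the count alone says little. The one called lower was Glyma.05G191600, which is also in the outer integument list. It is the homolog of CALS5, the callose synthase known from pollen walls in Arabidopsis. It stood at 13.5 CPM in callose synthase nuclei, against 27.3 in SWEET13/bZIP9 nuclei and 38.7 in the remaining nuclei. A second CALS5 homolog, Glyma.04G213100, had no UMI in callose synthase nuclei and 12.5 CPM in the remaining nuclei. The homolog of PDCB3, a protein that binds callose at plasmodesmata, had 59.4 CPM, against 121 in SWEET13/bZIP9 nuclei and 55.8 in the remaining nuclei, and its ratio to all other nuclei was 1.00 (0.785 to 1.26). Among the callose genes listed, those called higher were thus the 5 that chose the nuclei.

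Genes of sugar handling outside the rule were mostly level or lower. The 2 SWEET13 homologs of the rule are not in these lists, and their ratios to all other nuclei were 3.57 and 3.58. Among 6 tested sugar transporters 1 was called higher and 3 lower than in all other nuclei, beside 4.04% and 3.98% of all genes. The one called higher was the sucrose symporter SUC2 homolog Glyma.02G075100, at 25.3 CPM in callose synthase nuclei, against 10.7 in SWEET13/bZIP9 nuclei and 8.35 in the remaining nuclei. Those called lower were Glyma.13G169700, Glyma.19G009900 and Glyma.08G183500, at ratios of 0.439, 0.353 and 0.324. The last of these is also in the outer integument list. The neighboring SUC2 homolog by identifier, Glyma.02G075000, was not called, at 34.0 CPM, against 47.7 in SWEET13/bZIP9 nuclei, 133 in parenchyma comparison nuclei and 49.8 in the remaining nuclei. The sucrose synthase SUS4 homologs Glyma.09G073600 and Glyma.15G182600 stood at 192 and 359 CPM, against 332 and 594 in the remaining nuclei, at ratios near 0.6 that the size rule does not call.

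The genes with the lowest ratios belonged to other parts of the seed or have no annotation in the tables used. Glyma.09G124200 and Glyma.16G107500 had no UMI in callose synthase nuclei, where 3 UMIs would be 2.37 CPM, against 62.95 and 50.6 CPM in the remaining nuclei. The lipid transfer protein LTP4 homolog Glyma.01G132500 stood at 29.3 CPM in callose synthase nuclei, against 116 in SWEET13/bZIP9 nuclei and 1166 in the remaining nuclei, and its 37 UMIs lay in 6 nuclei. The auxin importer AUX1 homolog Glyma.11G228300 had 3 UMIs, or 2.37 CPM, against 55.4 CPM in the remaining nuclei. The homologs of LLG1, LTP3 and MYB5, named after their values were seen, had ratios to all other nuclei of 0.0613, 0.116 and 0.124. Without the deepest callose synthase nucleus the LTP3 and MYB5 ratios were 0.0624 and 0.0729.

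**Figure D3:**
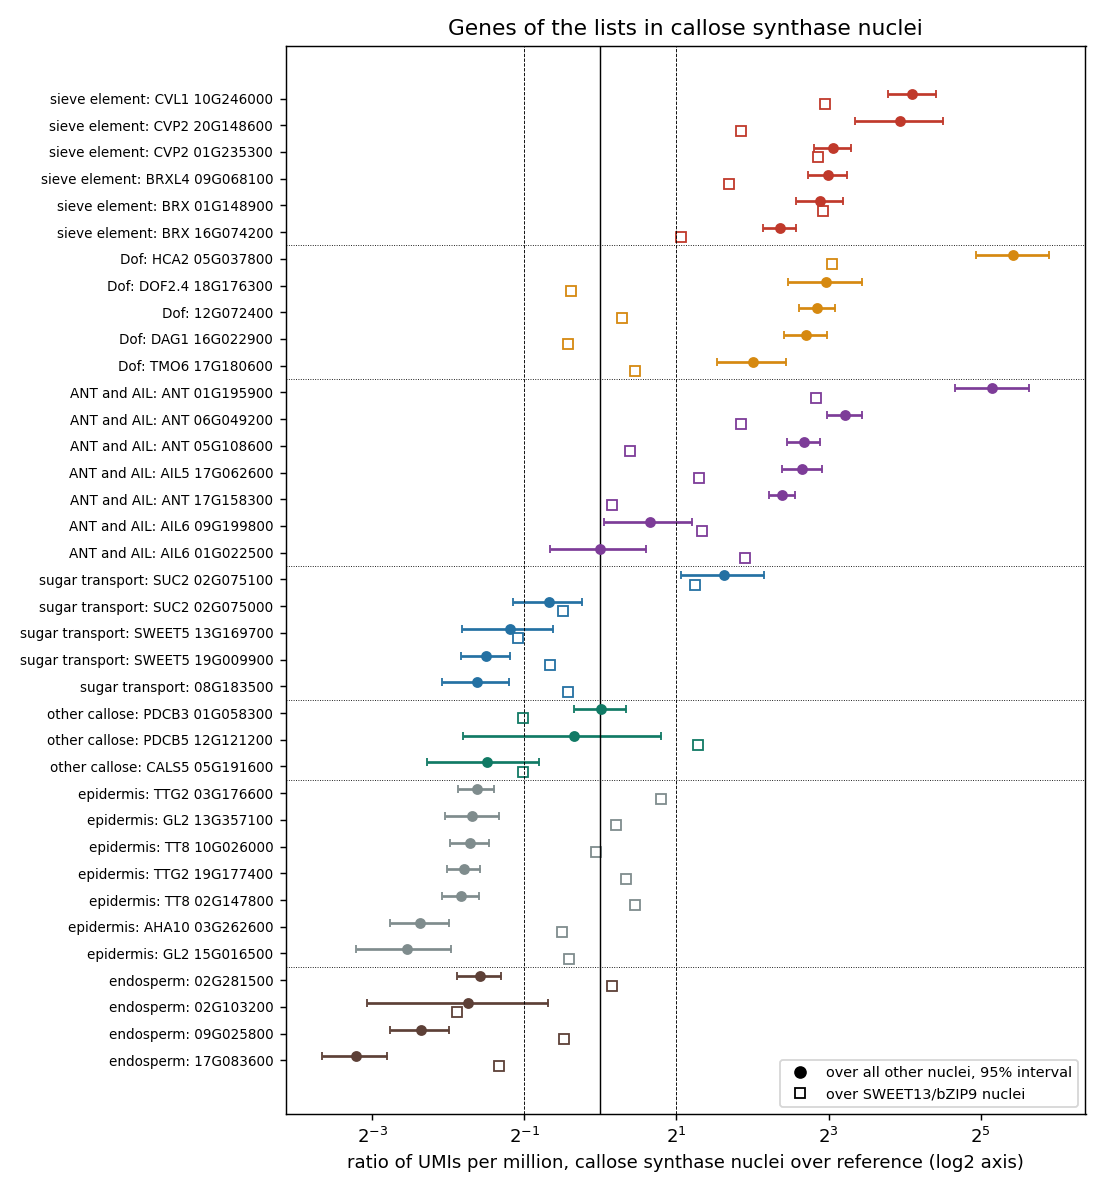
Ratio of CPM in callose synthase nuclei over all other nuclei (filled points with exact Poisson 95% intervals) and over SWEET13/bZIP9 nuclei (open squares) for genes of 7 lists, on a log2 axis with dashed lines at the 2-fold limits. The 6 sieve element genes lie beyond the upper limit in both comparisons, while 4 of the 5 Dof genes do so only over all other nuclei.

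Against SWEET13/bZIP9 nuclei the genes with the lowest ratios were of several kinds. Glyma.14G153400 stood at 2.37 CPM in callose synthase nuclei, against 62.3 in SWEET13/bZIP9 nuclei (ratio 0.0381). Glyma.09G043500 stood at 107 CPM, against 746 (ratio 0.143), but 1 SWEET13/bZIP9 nucleus held 355 of the 766 UMIs there, and without it the level was 430 CPM and the ratio 0.248. The peroxidase PA2 homolog Glyma.09G022300, named after its values were seen, stood at 140 CPM, against 503 (ratio 0.278), and was as common in parenchyma comparison nuclei, at 34.4% of nuclei, against 29.0% of SWEET13/bZIP9 nuclei. The study's sn6a list was divided between these sets. Its 56 genes, none of them used by the rule, were all called higher than in all other nuclei with a median ratio of 6.46, but against SWEET13/bZIP9 nuclei 16 were called higher and 4 lower, where 3.73% and 1.85% of genes were, with a median of 1.11 beside 1.05 over all genes. The study made that list from these nuclei, so it is not independent evidence.

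The parenchyma comparison nuclei stood further off. Against them 1149 genes (3.86%) were called higher and 951 (3.20%) lower, and 5 of 6 sieve element genes were called higher. The AIR3 homolog Glyma.18G250700 had a ratio of 105 to these nuclei. The 3 bZIP9 homologs that defined them were at like levels, 484 to 631 CPM in callose synthase nuclei, against 490 to 796.

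Within sn6a, callose synthase nuclei can be set against the 164 nuclei of the same cluster that the rule left out. The members were somewhat deeper, at a median of 2640.5 UMIs, against 1975.5 in the other sn6a nuclei, and depth entered the rule because a sum of 3 UMIs is harder to reach in a shallow nucleus. Here 859 genes (2.89%) were called higher and 718 (2.41%) lower. The AIR3 homolog Glyma.18G250700 stood at 1416 CPM in callose synthase nuclei of sn6a, against 54.8 in the other sn6a nuclei, a ratio of 25.8. The NAC075 homolog had a ratio of 17, the KP1 homolog Glyma.18G073500 of 11.1, the PP2-B1 homolog of 10.0 and the HCA2 homolog of 9.01.

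Sieve element genes differed within sn6a as well. The list summed to 916 CPM in callose synthase nuclei of sn6a, against 466 in the other sn6a nuclei, and 4 of 6 genes were called higher. Other vascular markers were level: the 3 bZIP9 homologs summed to 1797 CPM, against 1654, and the study's sn6a list to 16368 CPM, against 14902. The ANT and AIL genes summed to 1017 CPM, against 1161, with 2 genes called higher, among them the ANT homolog Glyma.01G195900 at a ratio of 2.71, and 1 called lower. In sn6b both measures were lower than in sn6a. There the sieve element list summed to 306 CPM and Glyma.18G250700 to 222 CPM in callose synthase nuclei, against 187 and 69.6 CPM in the other sn6b nuclei.

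Callose synthase nuclei outside sn6a and sn6b carried a different mix from those inside. Comparing the 86 nuclei outside with the 236 inside, 477 genes (1.60%) were called higher and 459 (1.54%) lower. The AIR3 homolog had a ratio of 0.132, outside over inside, and Glyma.18G109100 of 0.190, whereas Glyma.18G107900, found in 74.4% of the outside nuclei, had a ratio of 0.750 and was not called. The 3 bZIP9 homologs summed to 938 CPM outside, against 1797 CPM in sn6a members and 3216 CPM in sn6b members. Epidermis genes summed to 1182 CPM outside, against 315 CPM inside, but 1 outside nucleus held 263 of the 470 UMIs and without it the sum was 683 CPM. At least 1 such UMI was found in 43.0% of outside nuclei, against 37.3% of inside nuclei (22.1% and 8.90% after thinning). The deepest nucleus of the set is among the 43 that lay elsewhere and held 38.4% of their UMIs, and those 43 nuclei had 1752 CPM of epidermis genes.

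The 25 members in the embryo clusters kept some of both profiles. Their sieve element list summed to 588 CPM (433 to 779), and their 3 bZIP9 homologs to 637 CPM, while the 1026 other embryo nuclei had 101.2 CPM of each list. Their embryo YABBY genes summed to 465 CPM, against 640 CPM in the other embryo nuclei and 47.1 CPM in members of sn6a. Their GSL UMIs were led by Glyma.18G107900 (539 CPM) and Glyma.08G308700 (404 CPM), and Glyma.18G109100, the leading gene of the whole set, was at 171 CPM. The AIR3 homolog had 16 UMIs in these nuclei, 14 of them in 1 nucleus. Their median depth was 2699 UMIs, against 2784.5 in the other embryo nuclei, and whether these barcodes held 1 nucleus or several was not tested.

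The 18 members in sn1 had little of the sieve element profile. Their sieve element list summed to 114 CPM, against 163 CPM in the 690 other sn1 nuclei, and the AIR3 homolog stood at 42.6 CPM (8.79 to 125) from 3 UMIs, against 5.93 CPM. The sn1 parenchyma genes summed to 185 CPM (98.3 to 316), against 351.

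Nuclei were also divided by which GSL homologs they held, and these parts differed in the rest of the profile. The parts were made from the values the rule used, and the clusters used the rule genes too, so the differences are a description. Median depth was 2488 UMIs in nuclei with GSL7 homologs only and 2826 in those with both kinds. Nuclei with GSL7 homologs only lay in sn6a or sn6b in 45.2% of cases, those with GSL4 homologs only in 83.3%, and those with both kinds in 79.8%. The AIR3 homolog stood at 445 CPM in GSL7-only nuclei, 51.6 CPM in GSL4-only nuclei and 981 CPM in nuclei with both. The GSL4-only nuclei were few and shallow, 18 nuclei with a median of 1787 UMIs and 2 UMIs of the AIR3 homolog, so their level has a wide interval (6.25 to 186 CPM). The bZIP9 homologs summed to 965 CPM in GSL7-only nuclei, 2116 in GSL4-only nuclei and 1781 in nuclei with both.

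More rule UMIs went with more of the sn6a profile in RNA. Of nuclei with exactly 3 rule UMIs 53.6% lay in sn6a or sn6b, of those with 4 to 5 60.3%, with 6 to 9 74.2%, with 10 to 19 89.8% and with 20 or more 90.8%. Depth moved with these bins, at median totals of 2220, 2353, 2716, 3529 and 4595 UMIs. With every nucleus thinned to 500 UMIs, the share with the AIR3 homolog was still 5.80%, 7.94%, 13.6%, 32.2% and 47.7% over the 5 bins, and with a sieve element gene 13%, 17.5%, 27.3%, 32.2% and 41.5%. A Dof gene was found after thinning in 10.1%, 17.5%, 22.7%, 23.7% and 18.5%, with no steady order in the upper bins. The bins were made from the values the rule used, and the clusters used the rule genes too, so this trend is a description. The 2 chromatin measures described below differed from each other over the 5 bins. The held-out peak ratio was 2.26, 2.43, 2.50, 2.16 and 1.90, while the share of callose synthase neighbors was 22.7%, 39.3%, 44.3%, 50.7% and 54.2%. The nuclei just outside the rule, with 2 rule UMIs, lay in sn6a or sn6b in 32.7% of cases at a median depth of 1702.5 UMIs.

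**Figure D4:**
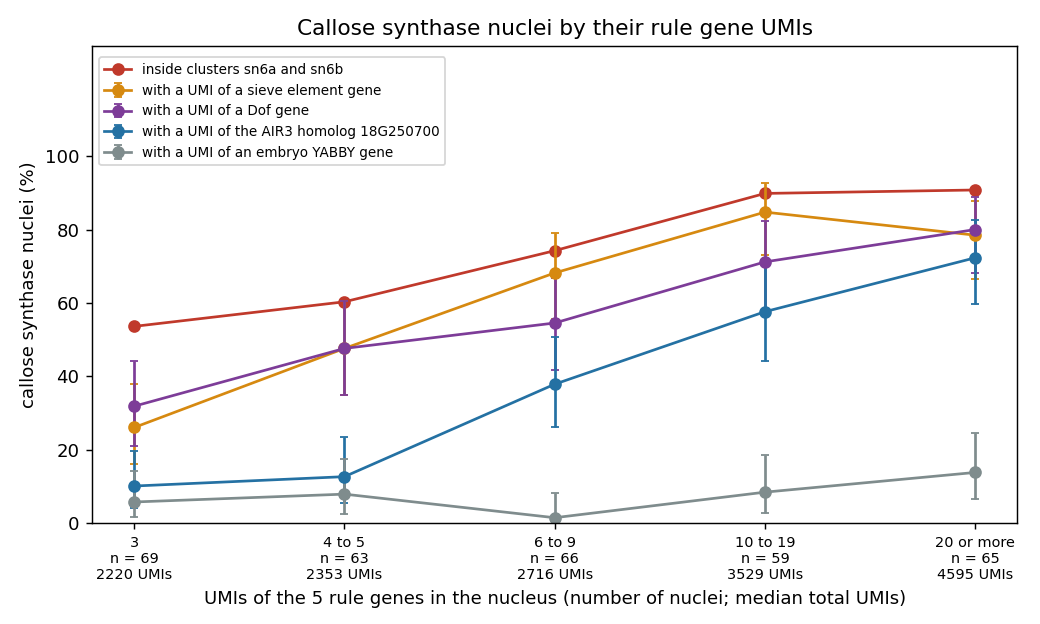
Share of callose synthase nuclei (percent, before thinning) that lay in sn6a or sn6b or had at least 1 UMI of a sieve element gene, a Dof gene, the AIR3 homolog or an embryo YABBY gene, by the number of rule UMIs in the nucleus; bars are exact binomial 95% intervals. The share in sn6a or sn6b is 53.6% at 3 rule UMIs and 90.8% at 20 or more, while median depth also differs, at 2220 and 4595 UMIs.

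Nuclei with none of the opposing SWEET13 and bZIP9 RNAs were set apart as well. This division used values of the rule, so it is a description. Median depth was 2537.5 UMIs in the 138 nuclei with none of these RNAs and 2758.5 in the 184 with at least 1 UMI of them. The sieve element list summed to 882 CPM in the 138 nuclei, against 543 CPM in the 184. The other bZIP9 homologs went the other way, at 948 CPM, against 2068 CPM. The AIR3 homolog stood at 978 CPM, against 837, and its share of thinned nuclei was alike at 21% and 21.2%.

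Chromatin accessibility was not used by the rule, so it gives a separate reading of the same nuclei. The members had a median of 7250 ATAC fragments per nucleus, against 6575 in SWEET13/bZIP9 nuclei and 7751 in the remaining nuclei. In a reduced space built from the peaks, each nucleus was given its 20 nearest neighbors. Of the neighbors of callose synthase nuclei 41.8% were callose synthase nuclei themselves, against 20.5% of the neighbors of SWEET13/bZIP9 nuclei, 8.73% for parenchyma comparison nuclei and 1.14% for the remaining nuclei. The set makes up 3.73% of all nuclei.

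Neighborhoods followed the RNA clusters. Members in sn6a had 55.9% callose synthase neighbors, against 35.1% for the other sn6a nuclei, at a median of 6553.5 and 5970 fragments. Members in sn6b had 30.2% callose synthase neighbors and 42.2% SWEET13/bZIP9 neighbors. Members in the embryo clusters had 63.2% embryo neighbors, 25.6% sn6a neighbors and 22.4% callose synthase neighbors. The other embryo nuclei had 82.7%, 0.867% and 1.42% of these. Members in sn1 had 78.6% sn1 neighbors and 7.5% callose synthase neighbors, against 74.7% and 3.54% for the other sn1 nuclei. By this measure 69.3% of all members had at least 10 of 20 neighbors in sn6a or sn6b, but only 22.1% (19 nuclei) of those outside these RNA clusters. For sn1 members the chromatin thus lay with sn1, as the RNA did.

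**Figure D5:**
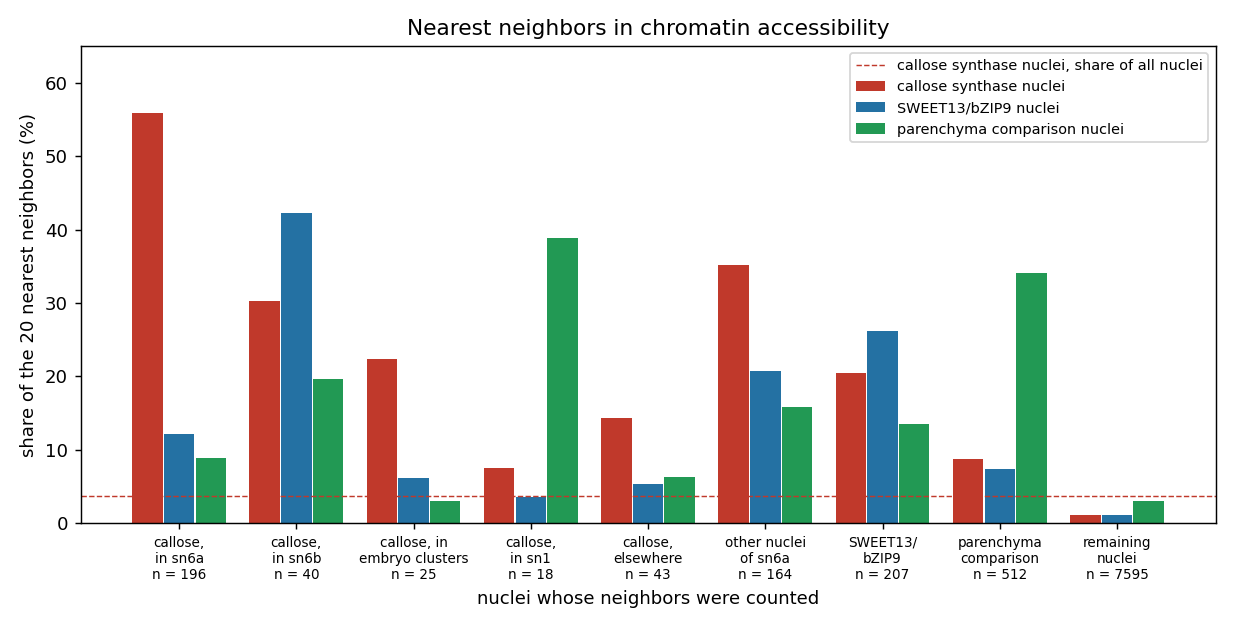
Share of the 20 nearest neighbors in chromatin accessibility that were callose synthase, SWEET13/bZIP9 or parenchyma comparison nuclei, in percent, for callose synthase nuclei by RNA cluster and for the other sets; the dashed line is the 3.73% that callose synthase nuclei make up of all nuclei. Callose synthase neighbors reach 55.9% for members in sn6a and 35.1% for the other nuclei of sn6a, against 1.14% for the remaining nuclei.

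Peaks more open in callose synthase nuclei were chosen on every other nucleus and measured on the nuclei held out. The 500 peaks with the highest ratio in the first portion took 2.38% of peak fragments in the 146 held-out members, against 1.10% in the 4172 other held-out nuclei, a ratio of 2.17 (2.14 to 2.19). All 500 stood above a ratio of 1 in the held-out nuclei and 307 reached 2. These peaks were long, with a median of 4087.5 bases, against 1022 bases for all 119743 peaks, and the 5357 peaks that had the 50 fragments needed to be chosen were longer still, at a median of 6310 bases.

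The same peaks were nearly as open in SWEET13/bZIP9 nuclei and less so in parenchyma comparison nuclei. SWEET13/bZIP9 nuclei had 2.35% of their peak fragments there and parenchyma comparison nuclei 1.87%, and the median nucleus had 2.85% among members, against 2.57% and 1.91%. In sn6a the median was 3.22% for members, against 3.19% for the other nuclei. Summed over nuclei, however, the share was lower for sn6a members, at 2.45% (2.42% to 2.49%), against 2.91% (2.86% to 2.96%) for the other sn6a nuclei. The members outside sn6a and sn6b had a ratio of 1.71 to all other held-out nuclei, and 15.2% of their neighbors were callose synthase nuclei. Over all 25652 peaks with at least 1000 fragments, 507 (1.98%) were called higher and 517 (2.02%) lower than in all other nuclei, but 219 (0.854%) were called higher and 133 (0.518%) lower than in SWEET13/bZIP9 nuclei. Against parenchyma comparison nuclei, 106 (0.413%) were called higher and 399 (1.56%) lower.

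The leading peaks show the size of these differences at single sites. Positions are on the Gmax_275_Wm82.a2.v1 assembly, and the genes near them were not annotated here. On chromosome 17, at 6752450 to 6754039, 25.3% of held-out members had a fragment, against 20.6% of held-out SWEET13/bZIP9 nuclei and 4.12% of all other held-out nuclei, and the ratio of fragments to all other nuclei was 7.88 (5.69 to 10.7). On chromosome 14, at 3722941 to 3725095, the ratio was 6.48 (4.71 to 8.77) from 52 fragments in members. On chromosome 7, at 8586490 to 8588748, 19.9% of members had a fragment, against 11.2% of SWEET13/bZIP9 nuclei and 4.51% of all other nuclei, with a ratio of 5.59 (3.93 to 7.80). Among these 3 sites the gap to SWEET13/bZIP9 nuclei was widest on chromosome 7 and rested on 42 fragments in members.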

How the data were processed

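The authors made the RNA counts by running bcl2fastq 2.20.0.422 and Cell Ranger ARC 1.0 on the Gmax_275_Wm82.a2.v1 soybean genome and by removing background with SoupX, and deposited whole-number UMI counts for 56044 genes in 8636 nuclei, the number of nuclei the study states. The deposited ATAC fragment file gives 125691389 fragments with read pair counts, of which 90.3% lay on those nuclei, and the peak list carries no values. The RNA library held 39881831 UMIs.

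No nucleus was filtered. Levels are summed UMIs per 1000000 with exact Poisson intervals, and shares have Clopper-Pearson intervals at 95%. Genes with 100 UMIs or more in the library were compared by the size rule in the text, since 1 library allows no test. Nuclei were clustered with Seurat 5.3.0 and sctransform 0.4.2 (the authors used Seurat 4.1.1) at 30 principal components and resolution 1. Of the 21 clusters, the one with the most callose synthase nuclei was then divided into 2 parts at resolution 0.1. Clusters and parts took the name of the study cluster with the most similar average profile, and the parts matched sn6a and sn6b. ATAC neighbors came from latent semantic indexing, components 2 to 30. Scrublet ran in scanpy 1.11.5. The gene calls were also run on simulated data, with planted changes larger than the 2-fold limit and no spread between nuclei. That run does not measure errors near the limit or from single nuclei.

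The members, comparison sets and gene lists were chosen with earlier results of these data known. Genes were named from the rule, from the lists, and as the 15 highest and 10 lowest ratios to all other nuclei and the 10 highest and 10 lowest to SWEET13/bZIP9 nuclei with at least 50 UMIs found or expected. Listed genes with under 20 UMIs were named after their values were seen. Symbols are the closest Arabidopsis genes in the study's tables. The keyword lists planned from a reference annotation matched no gene, as its identifiers differ, and gene coordinates and sequences were not used here.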

Additional observations from a re-analysis of the deposited data

How the results depend on the processing

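With a minimum of 5 rule UMIs, the share of members in sn6a or sn6b was 80.9%, the share of callose synthase neighbors in chromatin 38.1% and the held-out peak ratio 1.83. At 20 rule UMIs per 10000 there were 198 members, and those values were 87.9%, 44.1% and 1.72. Without the condition on the SWEET13 and bZIP9 genes, the median ratio of the study's sn6a list was 7.76, the neighbor share 47.5% and the peak ratio 2.41. Without the 6% of nuclei with the highest Scrublet scores, the neighbor share was 43.1% and the peak ratio 2.22. A fold of 3 left 650 genes higher and 625 lower than in all other nuclei, and 341 higher and 126 lower than in SWEET13/bZIP9 nuclei. A minimum of 50 UMIs for a call left 606 and 462 against all other nuclei. With 50 neighbors the neighbor share was 39.7%. The peak ratio was 2.09 in nuclei with at least 3000 fragments and 3.28 over 100 peaks. At resolution 1.5 the single cluster with the most members held 60.2% of them. Clusters at that resolution were not matched to sn6a or sn6b.

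Other alternatives were chosen after seeing the data. Without the deepest callose synthase nucleus the peak ratio was 2.23. With the members inside sn6a and sn6b alone, the list median was 7.90, the neighbor share 50.3% and the peak ratio 2.00. With the 86 members outside these clusters alone, 312 genes were called higher and 243 lower than in all other nuclei, 349 higher and 350 lower than in SWEET13/bZIP9 nuclei, the list median was 3.35, the neighbor share 5.47% and the peak ratio 1.01, where neighbors and peaks were taken anew for the 86. In those 86 nuclei 1 of 6 sieve element genes and 2 of 5 Dof genes were called higher. So were 4 of 7 tested ANT and AIL genes and all 3 bZIP9 homologs outside the rule. Called lower were 2 of 7 epidermis and 2 of 4 endosperm genes. Over all 29742 genes tested, the counts were the 312 and 243 given above. Ratios to all other nuclei that changed side there were 0 for Glyma.15G124500, Glyma.12G179700 and Glyma.18G004300, 0.534 for Glyma.15G246300, 0.265 for Glyma.07G065000, 0.60 for Glyma.18G211900, 0.263 for Glyma.14G206500, 0.537 for Glyma.08G194900 and 0.941 for Glyma.17G027600. Of the 174 gene ratios under this alternative, these 9 reversed, 122 moved by over 1.5 times and 43 stayed within it. The cause of these changes was not tested.

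TMM scaling moved the ratios by a factor of 0.975 against all other nuclei and kept every count within 1.5 times. No paired analysis was possible because there was 1 library of each kind. With few UMIs per nucleus, absence of a gene from a nucleus says little.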
